A study of Mus musculus with 6 samples.

Results

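The genes of glycolysis and of the response to low oxygen were examined in isolated islets of Langerhans, the endocrine cell clusters that lie within the exocrine pancreas, of mice with and without the short-chain fatty acid receptor gene Ffar3. The 35 members were chosen by symbol. They comprise 14 glycolytic enzymes, 2 subunits of pyruvate dehydrogenase, 3 genes of glucose uptake, its first phosphorylation and lactate export, 3 genes of the Pfkfb regulators, and 13 genes of the hypoxia-inducible factor (HIF) response. All 35 were found among 23179 gene rows, 34 under the symbol itself and Pkm under its older symbol Pkm2. The islet donors were male C57BL/6J mice, 10 to 14 weeks old, either wild type (WT) or Ffar3-/- (KO), with 3 libraries per genotype. Each library came from islets pooled from 2 pancreata, and no further allele or treatment is named. How the Ffar3 allele was made is not given in the sources used here. Values are FPKM, the fragments of a gene scaled by its length and by a factor for each library, so levels can be compared between genes. Comparison between libraries rests on the deposited scaling, whose effect is given below.

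Glycolysis turns glucose into pyruvate in the cytosol, and pyruvate dehydrogenase passes that pyruvate to the mitochondria. In beta cells the coupling of glycolysis to mitochondrial respiration sets insulin secretion. HIF-1 is a transcription factor whose alpha subunit, encoded by Hif1a, is marked for breakdown by the oxygen-dependent Egln hydroxylases. When oxygen is scarce it accumulates and raises a set of target genes, to which several glycolytic enzymes belong as well. Control of the factor is largely at the protein level, which RNA sequencing does not measure.

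The libraries differed in transcripts of other pancreatic cells. Ffar3 itself was at 4.69, 5.26 and 6.68 FPKM in WT. It was listed at 0 in the first and second KO library and reached 0.105 FPKM in the third. The mean log2(FPKM + 1) of 18 acinar (digestive enzyme) genes was 9.0 to 9.54 in WT, while the KO libraries stood at 8.87, 11.7 and 12.7 in replicate order. The summed FPKM of 10 lymphocyte genes was 8.13 to 8.82 in WT and, in replicate order, 89.8, 175 and 18.2 in the KO libraries, and Ms4a1, Cd3e and Cd3d of that list were listed at 0 in all 3 WT libraries. The duct list (10 genes) summed to 1098 to 1205 FPKM in WT and 1298 to 1852 in KO, and the macrophage list (9 genes) to 34.5 to 37.2 in WT and 62.6, 139 and 32.7 in KO. Endothelial genes (10 genes) summed to 153 to 195 FPKM in WT and 142 to 168 in KO, with 1 higher and 3 lower in KO. All 6 libraries list Ins2 at 0, and Ins1 is above 0 only in KO replicates 2 and 3, so the insulin genes give no check of the tissue. The beta cell list includes Ins1, so its means in KO replicates 2 and 3 cannot be compared with those of the other libraries. Its mean log2(FPKM + 1) ranged from 7.02 to 7.10 over the WT libraries, against 6.90, 8.12 and 8.17 in KO, with 3 of 9 tested genes lower and 0 higher. That of the alpha cell list ranged from 5.68 to 5.96 in WT, against 5.51, 5.20 and 4.94 in KO (2 of 6 tested lower), and that of the delta cell list 5.68 to 5.87 in WT and 5.57, 5.10 and 4.91 in KO (1 of 3 tested lower). The part of these differences in the results on members was not tested. In bulk islets, fewer cells of a type and less RNA per cell cannot be told apart.

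KO and WT were compared gene by gene with limma on log2(FPKM + 1), and a gene was called at a Benjamini-Hochberg adjusted p under 0.05 over all tested genes. Of the 35 members, 32 reached the mean of 1 FPKM needed for testing. Hk2, Egln3 and Adm did not. In KO, 9 of the 32 rose and 5 fell, and 18 did not pass. The 14 called members are 43.8% of those tested, beside 39.9% of all 11669 tested genes (20.3% higher and 19.6% lower). The share of members called is thus near the background, and what follows is which members moved and how far. The groups did not overlap for 16 of the 32, beside 56.3% of all tested genes. Log2 differences, KO minus WT, ran from -0.67 (Ankrd37) to 0.77 (Pfkp), with a median of 0.07 over the members and -0.01 over all tested genes. Sizes were modest, since no tested member but Slc16a3 differed by a factor of 2 in mean FPKM.

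**Figure D1:**
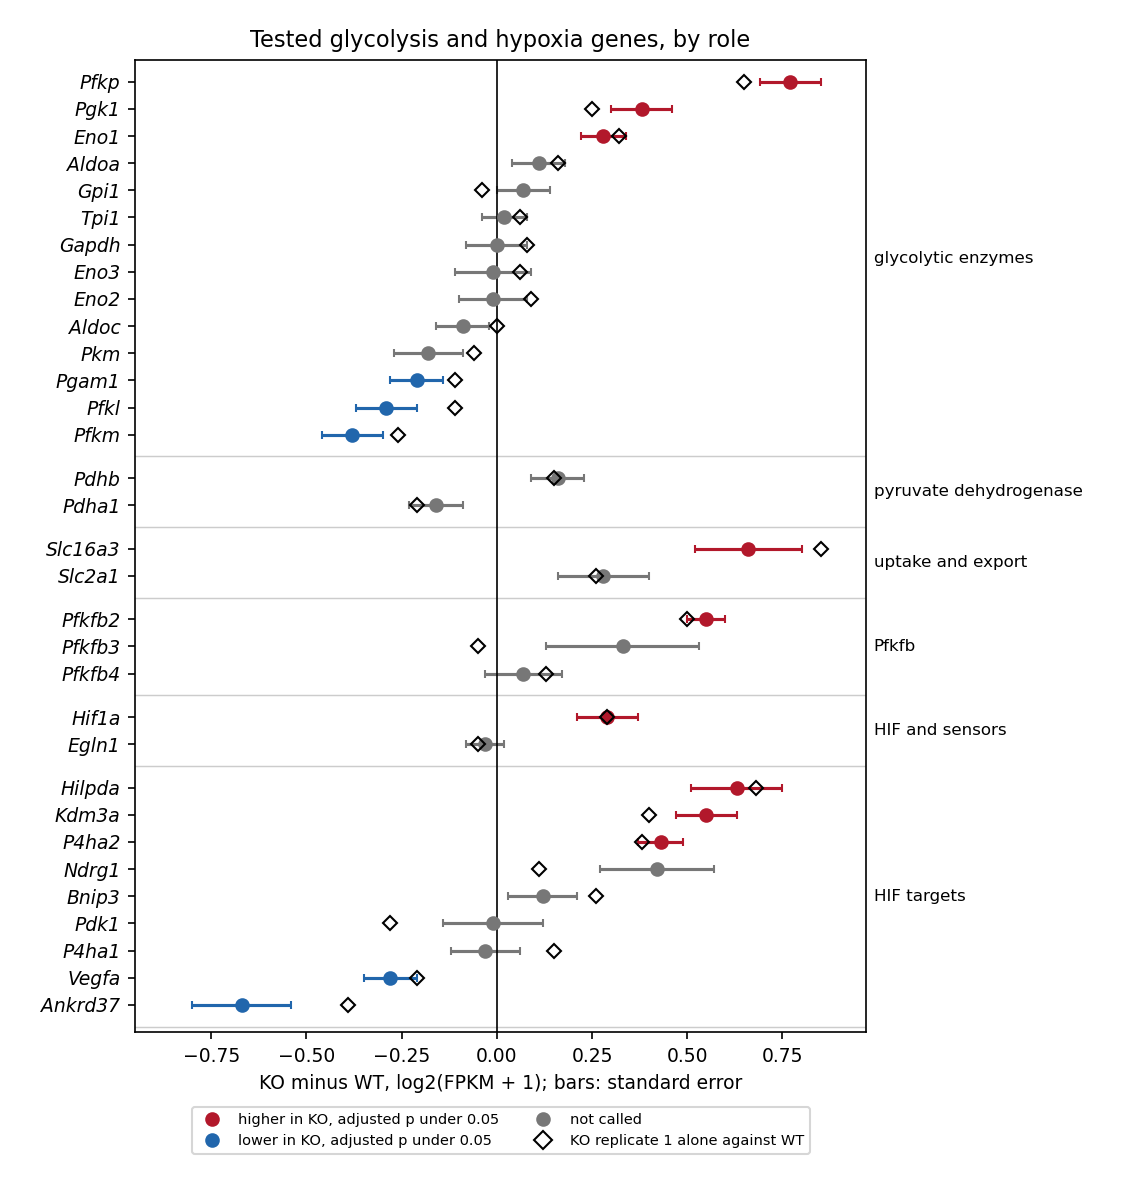
Log2 difference (KO minus WT, log2(FPKM + 1)) of the 32 tested members by role, with the standard error of the limma fit over 3 libraries per group (circles) and, as open diamonds, KO replicate 1 alone against the 3 WT libraries. Red and blue circles passed an adjusted p under 0.05; both glycolytic enzymes and HIF targets lie on both sides of 0.

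Promoter sequences of 6 members are shown for the motif by which HIF-1 is known to bind, the core of the hypoxia response element, which 5 of them hold. The core was searched as ACGTG and as GCGTG on both strands in the 250 bases before each RefSeq start (build GRCm38.p6). The opposite strand reads CACGT and CACGC. The palindrome CACGTG, an E-box that other factors bind, holds ACGTG on both strands and is therefore counted as 2 matches. Capitals mark the matches, each sequence runs 5′ to 3′ on the gene's own strand, and no annotated exon (GENCODE M21) overlaps these windows. Pgk1, Pfkfb2 and P4ha2 rose in KO, Hk2 was higher but too low to be tested, and Pfkm and Vegfa fell.
Pgk1, chrX:106186850-106187099, plus strand: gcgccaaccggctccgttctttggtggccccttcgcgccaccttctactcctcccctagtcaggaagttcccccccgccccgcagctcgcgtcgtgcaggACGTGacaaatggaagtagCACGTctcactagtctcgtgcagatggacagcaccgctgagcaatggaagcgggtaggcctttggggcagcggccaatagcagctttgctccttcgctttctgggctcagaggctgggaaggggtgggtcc
Hk2, chr6:82774455-82774704, minus strand: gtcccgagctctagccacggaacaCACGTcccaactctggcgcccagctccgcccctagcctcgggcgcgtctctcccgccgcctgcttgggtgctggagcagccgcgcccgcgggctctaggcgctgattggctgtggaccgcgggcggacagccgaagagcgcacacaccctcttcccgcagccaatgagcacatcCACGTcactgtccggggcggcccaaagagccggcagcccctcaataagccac
Pfkfb2, chr1:130715822-130716071, minus strand: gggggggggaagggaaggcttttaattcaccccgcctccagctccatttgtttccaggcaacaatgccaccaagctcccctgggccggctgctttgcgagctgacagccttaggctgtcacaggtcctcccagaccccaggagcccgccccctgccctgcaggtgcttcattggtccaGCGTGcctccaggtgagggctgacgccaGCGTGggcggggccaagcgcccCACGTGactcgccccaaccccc
P4ha2, chr11:54100674-54100923, plus strand: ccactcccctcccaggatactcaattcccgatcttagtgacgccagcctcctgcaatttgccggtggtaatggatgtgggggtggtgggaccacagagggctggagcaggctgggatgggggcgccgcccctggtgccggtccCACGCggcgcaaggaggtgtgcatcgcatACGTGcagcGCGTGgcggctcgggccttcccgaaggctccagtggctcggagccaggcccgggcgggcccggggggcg
Pfkm, chr15:98092339-98092588, plus strand: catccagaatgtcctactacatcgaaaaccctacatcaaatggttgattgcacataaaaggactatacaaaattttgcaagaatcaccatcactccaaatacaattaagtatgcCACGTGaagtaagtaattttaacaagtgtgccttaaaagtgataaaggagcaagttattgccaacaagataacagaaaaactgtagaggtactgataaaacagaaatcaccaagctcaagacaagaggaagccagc
Vegfa, chr17:46032378-46032627, minus strand: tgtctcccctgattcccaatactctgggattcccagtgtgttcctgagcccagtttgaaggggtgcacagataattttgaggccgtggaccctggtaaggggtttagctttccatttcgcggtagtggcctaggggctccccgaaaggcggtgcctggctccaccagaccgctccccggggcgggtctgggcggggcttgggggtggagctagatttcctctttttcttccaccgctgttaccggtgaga

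Members that rose and members that fell both carried the core, so its presence did not separate the directions. At least 1 of a gene's windows held either form for 9 of the 9 members that rose, for 5 of the 5 that fell and for 14 of the 17 tested members with a promoter entry that did not pass. Counted by window, 40 of 51 member windows (78.4%) held either form, beside 38.6% of all 32851 promoter windows. Member promoters were also richer in the dinucleotide CG, which both forms contain, with a median of 14 CG per window beside 6 over all promoters. Among promoter windows with at least 14 CG, 67.3% held either form, but their median of 22 CG was above that of the members. ACGTG alone was in 47.1% of member windows, 16.6% of all windows and 25.0% of those with at least 14 CG. By gene, 91.2% of members held either form, beside 41.5% of all genes and 68.9% over windows with at least 14 CG. These shares by gene are not on equal terms, since members had more windows per gene in which to match. There were 51 windows for 34 members, 32851 for 27025 genes over all promoters, and 9646 for 8575 genes with at least 14 CG. Such a match describes the letters only, and the Vegfa window above, which holds none, says nothing of regions further away. A second RefSeq start of Vegfa has a window, not shown, with 1 ACGTG and 1 GCGTG match, and through it Vegfa counts among the 5 that fell. The Pfkm window shown has 2 CG, and its 2 matches are 1 CACGTG palindrome. Pfkm also has windows that are not shown, further along chromosome 15. The window at 98108221 held 1 ACGTG and 1 GCGTG match, that at 98108306 held 1 GCGTG match, and that at 98111810 held none.

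Phosphofructokinase, the committed step of glycolysis, showed opposite differences among its 3 genes. The 3 paralogs encode the liver-type (Pfkl), muscle-type (Pfkm) and platelet-type (Pfkp) subunits of the same tetrameric enzyme. Pfkp was at 7.01, 7.21 and 6.97 FPKM in WT and at 11.7, 14.4 and 12.3 FPKM in KO. All 3 KO libraries thus lay well above the narrow WT range, and the mean rose 1.81-fold (log2 difference 0.77, SE 0.08, adjusted p = 0.0011). Pfkm, the most abundant paralog, was at 24.3, 23.5 and 22.4 FPKM in WT and at 19.4, 16.2 and 17.7 in KO, so every KO library was below every WT library (log2 difference -0.38, SE 0.08, adjusted p = 0.0087). Pfkl was at 17.6, 17.8 and 18.0 FPKM in WT and 16.4, 13.5 and 13.4 in KO (log2 difference -0.29, SE 0.08, adjusted p = 0.029). Its KO values were lowest in the libraries with high acinar transcripts.

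The summed level of the step moved far less than its composition. Pfkl, Pfkm and Pfkp together came to 48.9, 48.5 and 47.4 FPKM in WT and to 47.5, 44.0 and 43.3 in KO. The share of Pfkp in that sum was 14.3%, 14.9% and 14.7% in the WT libraries and 24.6%, 32.6% and 28.3% in the KO libraries. The share of Pfkm was 47.3% to 49.7% in WT and 36.7% to 40.9% in KO. Shares within a library do not depend on scaling between libraries, and for both genes the groups did not overlap.

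Pfkp and Pfkm passed in each of the 18 alternative analyses, Pfkp with log2 differences of 0.59 to 0.84. In KO replicate 1, whose acinar level was below that of every WT library, Pfkp was higher by 0.65 and Pfkm had a log2 difference of -0.26. That library's lymphocyte and macrophage sums (89.8 and 62.6 FPKM) were above those of every WT library. Among the KO libraries, Pfkp was highest and Pfkm lowest in replicate 2, where both sums were highest. The part of these cells in the Pfkp and Pfkm differences was not tested. Pfkl was not called in KO replicate 1 alone (log2 difference -0.11, adjusted p = 0.24), when the acinar mean entered the model (0.12), with the replicate number as a block (0.051), or without WT replicate 1, 2 or 3 (0.087, 0.08 and 0.097) or KO replicate 2 or 3 (0.083 and 0.072). Exons of Pfkp (chr13:6579768-6648777, minus strand) overlap those of Pitrm1 on the opposite strand over 748 of 13401 bases, and the strand setting of the counting is not given. Pitrm1 was at 12.5 to 13.9 FPKM in WT and 10.3 to 12.4 in KO and was not called (log2 difference -0.17, adjusted p = 0.14).

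**Figure D2:**
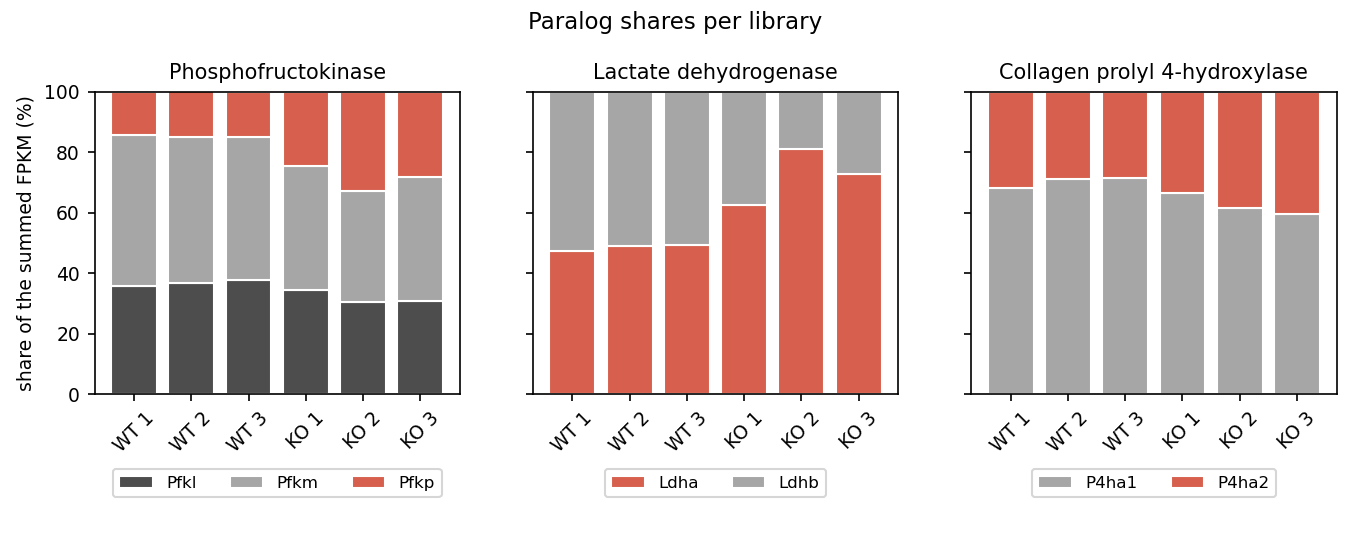
Share (%) of each paralog in the summed FPKM of its step in the 3 WT and 3 KO libraries, for phosphofructokinase, lactate dehydrogenase and the collagen prolyl 4-hydroxylase alpha subunits. Pfkp takes 14.3% to 14.9% in WT and 24.6% to 32.6% in KO, and Ldha 47.3% to 49.2% in WT and 62.7% to 81.1% in KO.

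Among the other enzymes, 3 of the later steps of glycolysis were called and the rest were not. Pgk1, phosphoglycerate kinase, which makes the first ATP of the pathway, was at 78.2, 74.0 and 79.5 FPKM in WT and at 92.0, 101 and 111 in KO. It lay above the WT range in every KO library and was lowest among them where the acinar level was low. Its log2 difference was 0.38 (SE 0.08, adjusted p = 0.01), and 0.25 in KO replicate 1 alone. Eno1, the ubiquitous enolase, was at 64.2, 58.6 and 63.1 FPKM in WT and 77.4, 75.9 and 72.3 in KO (log2 difference 0.28, SE 0.06, adjusted p = 0.012). Unlike Pgk1, Eno1 was highest in KO replicate 1, where its log2 difference was 0.32. The other enolases, Eno2 (16.8 FPKM in both groups) and Eno3 (6.94 FPKM in WT and 6.95 in KO, group means), did not pass and each had a log2 difference of -0.01. Eno1 has a near-identical intronless copy, listed as Gm5506, whose fragments cannot always be told apart from those of Eno1. That copy was at 0.953 to 1.34 FPKM in WT and 1.22 to 1.52 in KO and was not called.

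Pgam1, phosphoglycerate mutase, fell, but its call was fragile. It was at 118, 110.3 and 117 FPKM in WT and 107, 94.7 and 96.3 in KO (log2 difference -0.21, SE 0.07, adjusted p = 0.045). It was not called in KO replicate 1 alone (-0.11, adjusted p = 0.26), with the acinar covariate (0.17), with the replicate block (0.055), with no filter (0.052), after quantile normalization (0.076), or without WT replicate 1, 2 or 3 (0.15, 0.068 and 0.14) or KO replicate 2 or 3 (0.11 and 0.097).

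For the remaining 8 enzymes, none of which passed, log2 differences lay between -0.18 and 0.11. Gapdh was at 370.3, 354 and 372 FPKM in WT and 385, 359.7 and 354 in KO, a log2 difference of 0.00 (SE 0.08). Tpi1, triosephosphate isomerase, had a log2 difference of 0.02 and Gpi1, glucose-6-phosphate isomerase, of 0.07. Aldoa, the main aldolase, was at 328, 311 and 329.5 FPKM in WT and 362, 342 and 344 in KO. Its groups did not overlap, but the log2 difference of 0.11 did not pass (adjusted p = 0.25). It held 98.1% to 98.6% of the summed aldolase FPKM in every library, with Aldoc making up the rest. Pkm, pyruvate kinase of most tissues, was at 297, 272 and 298 FPKM in WT and 277, 242 and 247 in KO (log2 difference -0.18, adjusted p = 0.13, and 0.033 without KO replicate 1). Several of these genes have processed copies in the mouse genome, so their FPKM are uncertain to that extent.

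**Figure D3:**
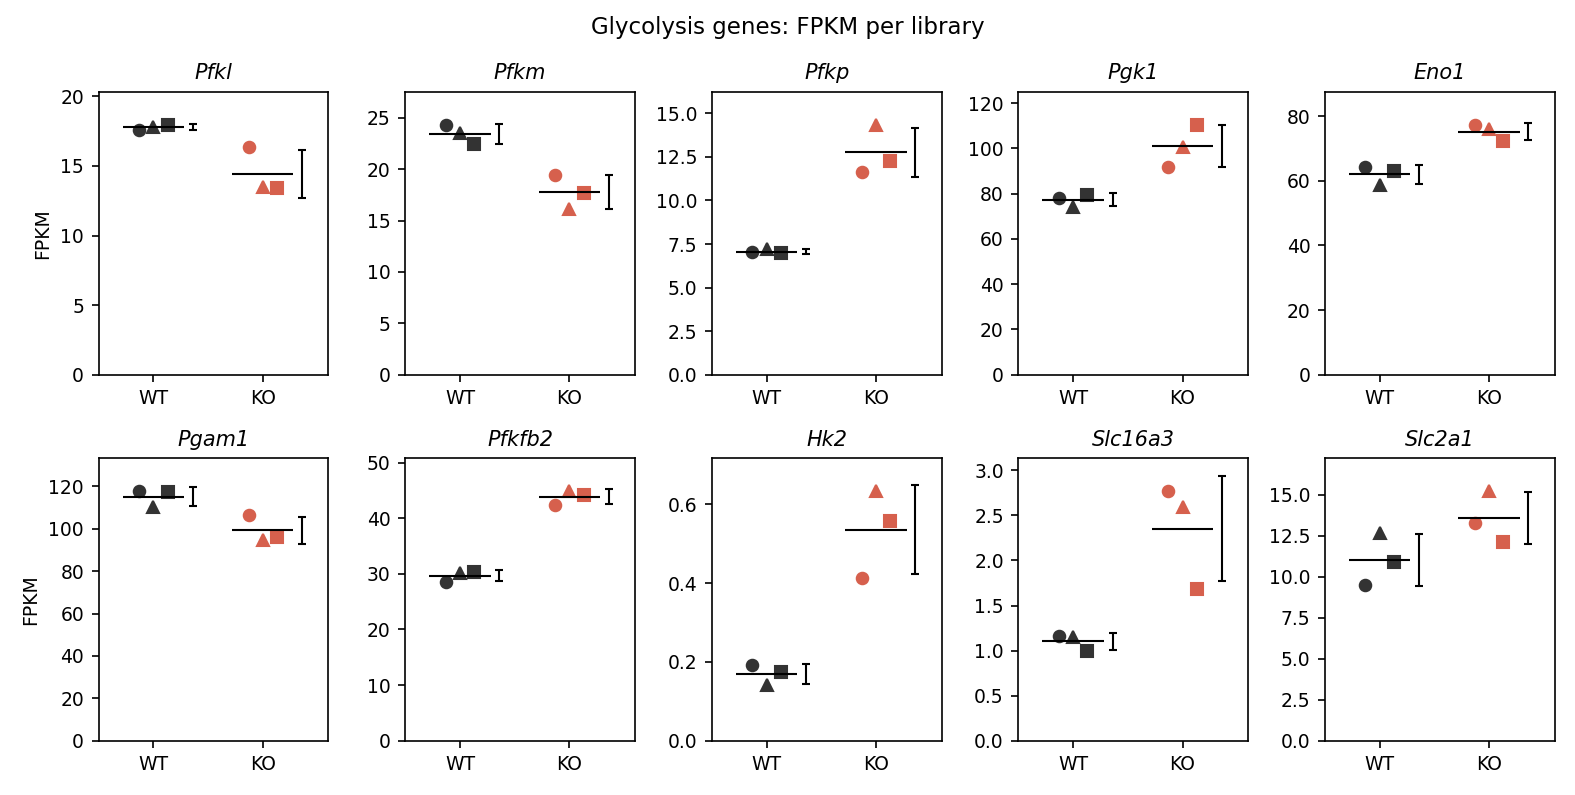
FPKM per library of 10 genes of glycolysis and glucose handling, WT in dark grey and KO in red; circles, triangles and squares are replicates 1, 2 and 3, lines are group means and bars the SD (n = 3). Pfkp, Pgk1, Eno1, Pfkfb2, Hk2 and Slc16a3 are higher in every KO library than in any WT library, and Pfkl, Pfkm and Pgam1 lower.

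Pfkfb2 rose, with the smallest adjusted p of any member, and the other Pfkfb genes did not pass. The Pfkfb enzymes make and remove fructose 2,6-bisphosphate, the strongest allosteric activator of phosphofructokinase. Pfkfb2 was at 28.6, 30.2 and 30.3 FPKM in WT and at 42.4, 45 and 44.2 in KO. Both groups were tight and far apart, a 1.48-fold rise in mean FPKM (log2 difference 0.55, SE 0.05, adjusted p = 0.00086). In KO replicate 1 alone it was 0.50 higher, and with the acinar covariate 0.52. Exons of Pfkfb2 overlap those of Gm29427 on the same strand over 1262 of 7254 bases, and no value of Gm29427 is given here. They also overlap Yod1 on the opposite strand over 154 bases. Yod1 was at 2.22 to 2.59 FPKM in WT and 2.94 to 3.28 in KO and was not called (log2 difference 0.25, adjusted p = 0.051). Pfkfb2 made up 78.1% to 83.2% of the summed FPKM of the 3 Pfkfb members in WT and 81.8% to 85.9% in KO, so its rise also raised that sum, from 36.3 to 37.0 FPKM in WT to 49.3 to 55.0 in KO. Pfkfb3, the form with the highest ratio of kinase to phosphatase activity and itself a HIF target, was at 6.15, 3.94 and 4.91 FPKM in WT and 4.72, 8.20 and 6.94 in KO. Its groups overlapped (adjusted p = 0.21), with a value of 0.034 without KO replicate 1. Pfkfb4 stayed between 1.77 and 2.21 FPKM across the 6 libraries (adjusted p = 0.61).

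Glucose uptake, the first step and lactate export held the largest relative differences, at low levels. Slc16a3, the monocarboxylate transporter MCT4 of lactate-exporting cells, was at 1.16, 1.15 and 0.99 FPKM in WT and 2.78, 2.60 and 1.68 in KO, a 2.13-fold rise in mean FPKM (log2 difference 0.66, SE 0.14, adjusted p = 0.013, 0.052 without WT replicate 3). In KO replicate 1 alone it was 0.85 higher. Among the KO libraries it was lowest in replicate 3, which also had the fewest lymphocyte transcripts, and their part in the difference was not tested. Hk2, the inducible hexokinase that beta cells normally keep low, was at 0.192, 0.142 and 0.174 FPKM in WT and 0.412, 0.635 and 0.558 in KO. Every KO value was above every WT value, but at a mean under 1 FPKM the gene was outside the test, and in the fit with no filter it was higher (log2 difference 0.39, adjusted p = 0.0089). The depth behind such low values is unknown. Slc2a1, the glucose transporter GLUT1, was at 9.52, 12.7 and 10.9 FPKM in WT and 13.3, 15.2 and 12.1 in KO. Its groups overlapped and it did not pass (log2 difference 0.28, adjusted p = 0.096).

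Pyruvate dehydrogenase did not pass in either subunit, and the signs were opposite. Pdha1, the catalytic alpha subunit, was at 47.8, 44.2 and 46.8 FPKM in WT and 39.9, 39.5 and 44.5 in KO (log2 difference -0.16, adjusted p = 0.091, 0.038 without KO replicate 3 and 0.044 after quantile normalization). Pdhb, the beta subunit, was at 67.5, 62.0 and 62.7 FPKM in WT and 71.2, 67.4 and 77.2 in KO (log2 difference 0.16, adjusted p = 0.099, 0.03 after quantile normalization). Exons of Pdha1 overlap Map3k15 on the opposite strand over 603 of 3734 bases, and Map3k15 fell (log2 difference -0.43, adjusted p = 0.0064), and without strand, reads of the pair cannot be told apart.

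Hif1a, the oxygen-regulated factor itself, rose by a small amount. It was at 17.2, 18.0 and 17.0 FPKM in WT and 21.6, 24.1 and 19.3 in KO. All KO libraries were above WT (log2 difference 0.29, SE 0.08, adjusted p = 0.028), and KO replicate 1 alone gave the same log2 difference. The order of the KO libraries, replicate 2 highest and replicate 3 lowest, was that of the lymphocyte sum, whose part in the difference was not tested. The adjusted p was 0.055 with the acinar covariate, 0.054 after quantile normalization, 0.092, 0.061 and 0.095 without WT replicate 1, 2 or 3 and 0.056 without KO replicate 2. Of the hydroxylases that sense oxygen, Egln1 (PHD2) was at 16.9, 17.0 and 17.0 FPKM in WT and 16.3, 16.1 and 17.5 in KO and did not pass (log2 difference -0.03, SE 0.05). Egln3, a sensor that is a strong HIF target in many cells, was below the test's minimum at 0.315 to 0.519 FPKM in WT and 0.407 to 1.08 in KO, with overlapping groups.

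The HIF targets moved in both directions. With Egln1 and Egln3 counted among them there are 12 targets, of which 10 were tested, 3 rose, 2 fell and 5 did not pass. Members listed under another role that are HIF targets as well, such as Pfkfb3 and several glycolytic enzymes, are not in this count. Of all tested genes 20.3% rose and 19.6% fell, so with 10 genes these counts say little about the targets as a group. The 3 that rose act in chromatin, collagen and lipid storage. Kdm3a, a histone H3 lysine 9 demethylase, was at 6.82, 7.42 and 6.81 FPKM in WT and 9.59, 10.8 and 11.8 in KO. Its KO libraries were all above WT (log2 difference 0.55, SE 0.08, adjusted p = 0.0037), with 0.40 in KO replicate 1 alone. P4ha2, a catalytic subunit of the collagen prolyl 4-hydroxylase, was at 9.66, 9.56 and 9.06 FPKM in WT and 12.6, 12.5 and 14.0 in KO (log2 difference 0.43, SE 0.06, adjusted p = 0.0037, 0.38 in KO replicate 1 alone). Its paralog P4ha1, at 20.7, 23.7 and 22.6 FPKM in WT and 24.8, 20.2 and 20.7 in KO, did not pass (log2 difference -0.03), and the share of P4ha2 in their sum was 28.6% to 31.9% in WT and 33.6% to 40.4% in KO. Hilpda, a protein of lipid droplets that inhibits triglyceride breakdown, was at 13.3, 10.6 and 9.85 FPKM in WT and 18.5, 19.6 and 15.5 in KO. It rose 1.59-fold in mean FPKM (log2 difference 0.63, SE 0.12, adjusted p = 0.0089), and by 0.68 in KO replicate 1 alone.

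Vegfa and Ankrd37 fell. Vegfa, the growth factor by which islet cells maintain their dense capillaries, was at 107, 99.3 and 110.5 FPKM in WT and 90.8, 87.8 and 81.8 in KO. The groups did not overlap and the log2 difference was -0.28 (SE 0.07, adjusted p = 0.019). In KO replicate 1 alone the log2 difference was -0.21 and Vegfa was not called. The adjusted p was 0.069 with the acinar covariate and 0.076 and 0.078 without WT replicate 1 or 3, so Vegfa was not called there. Ankrd37, an ankyrin repeat gene widely used as a marker of HIF-1 activity, was at 10.5, 9.66 and 10.3 FPKM in WT and 7.52, 5.89 and 4.89 in KO. It had the largest fall of any member (log2 difference -0.67, SE 0.13, adjusted p = 0.0085). It stood lowest where the acinar level was highest, but remained called in KO replicate 1 alone (-0.39, adjusted p = 0.021), with the acinar covariate (-0.44, adjusted p = 0.015) and in the other 16 alternatives. Exons of Ankrd37 (chr8:45996902-46005707, minus strand) overlap Lrp2bp on the opposite strand over 349 of 1539 bases, and Lrp2bp was at 0.398 to 0.753 FPKM. They also overlap Ufsp2 over 57 bases, which was at 41.8 to 45.3 FPKM in WT and 30.8 to 38.9 in KO and fell too (log2 difference -0.29, adjusted p = 0.041).

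The targets that did not pass included canonical ones. Ndrg1, a hypoxia and differentiation gene, was at 96.7, 98.0 and 97.2 FPKM in WT and 105, 128 and 165 in KO. Its KO values were above WT and spread in the order of the acinar level (log2 difference 0.42, adjusted p = 0.061). KO replicate 1 alone gave 0.11 (adjusted p = 0.18), while the adjusted p was 0.006 without KO replicate 1, 0.016 with array weights and 0.037 after quantile normalization. Bnip3, a mitophagy receptor, was at 72.1, 73.1 and 68.2 FPKM in WT and 85.6, 67.6 and 79.5 in KO (adjusted p = 0.33). Its log2 difference was 0.26 in KO replicate 1 alone. Pdk1, the kinase that switches off pyruvate dehydrogenase, was at 7.66, 7.02 and 7.44 FPKM in WT and 5.90, 7.42 and 8.82 in KO, with a log2 difference of -0.01. The KO libraries straddled WT, and the order followed the acinar level. Adm, the vasodilator peptide adrenomedullin, was below the test's minimum at 0.253 to 0.755 FPKM in WT and 0.335 to 0.97 in KO.

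**Figure D4:**
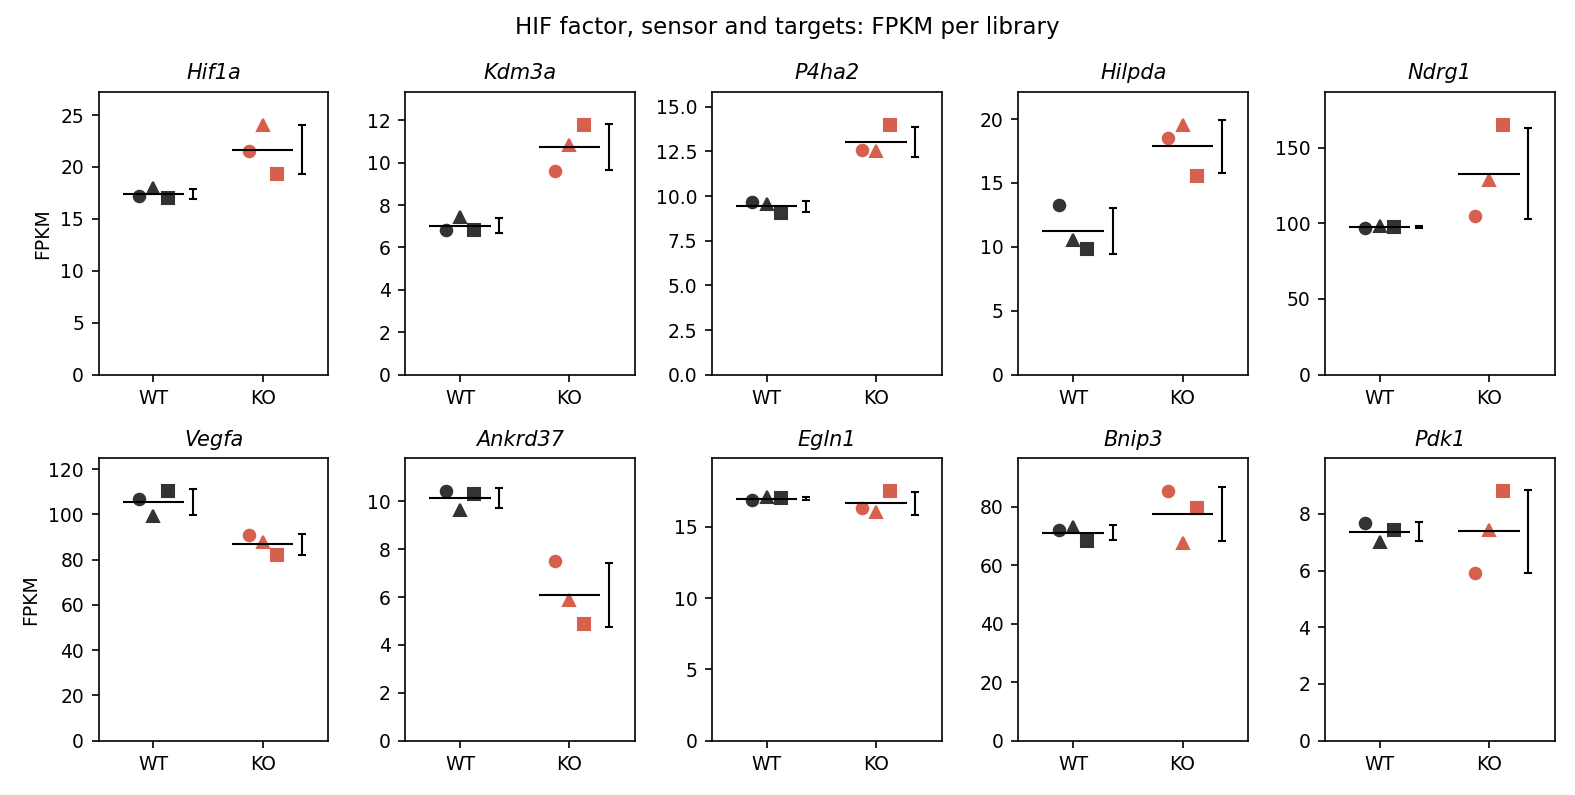
FPKM per library of Hif1a, the sensor Egln1 and 8 HIF targets, WT in dark grey and KO in red; circles, triangles and squares are replicates 1, 2 and 3, lines are group means and bars the SD (n = 3). Kdm3a, P4ha2 and Hilpda lie higher in every KO library, Vegfa and Ankrd37 lower, and Egln1, Bnip3 and Pdk1 overlap.

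Set side by side, glycolytic enzymes and HIF targets, as grouped here, were alike in having no common direction. Of the 14 glycolytic enzymes, 3 rose and 3 fell, and their median log2 difference was 0.00. Of the 10 tested HIF targets, 3 rose and 2 fell, with a median of 0.05, beside -0.01 over all tested genes. The shares called were 42.9% and 50.0%, beside 39.9% of all tested genes. The medians in KO replicates 1, 2 and 3 were 0.06, 0.02 and -0.05 for the enzymes and 0.13, -0.03 and 0.19 for the targets. The HIF targets were more spread out, with a median absolute log2 difference of 0.35 against 0.15 for the enzymes and 0.22 over all tested genes. No test of one group against the other was made. In KO replicate 1 alone, the median log2 difference was 0.10 over all tested members, beside -0.01 over all tested genes. With the acinar covariate, 8 of the 32 tested members were higher, a larger share than the 14.3% of all tested genes. In that fit 2 of the 32 were lower, beside 11.1% of all tested genes, and 25.5% of all tested genes were called. No test of these shares was made.

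How the libraries are scaled to each other affects these counts. With libraries rescaled to equal FPKM sums outside the acinar genes, the median of all genes moved to -0.18 and 3 members remained called, Pfkp higher and Pfkm and Ankrd37 lower. The medians became -0.18 for the enzymes and -0.13 for the HIF targets, which is at or slightly above the median of all genes. Of all calls, 31.9% were then higher in KO, beside 50.8% with the values as deposited. When the insulin rows were left out of the sums as well, the median of all genes was -0.10, 41.6% of calls were higher, and Pfkfb2 and Kdm3a also remained called higher.

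Other genes of glucose use, outside the members, showed a similar mixture. Of 30 listed genes 25 were tested, 5 rose and 5 fell, a called share of 40.0% beside 39.9% of all tested genes. Ldha, the lactate dehydrogenase subunit that beta cells normally keep low, was at 10.2, 8.92 and 9.68 FPKM in WT and 14.6, 26.1 and 20.4 in KO (log2 difference 0.98, adjusted p = 0.0073). Its KO values were above WT in all libraries and were highest in replicates 2 and 3, and the part of other cell types was not tested. Ldhb, named after its values were seen, was at 9.27 to 11.4 FPKM in WT and 6.09 to 8.71 in KO. Ldha thus went from 47.3% to 49.2% of their sum in WT to 62.7%, 81.1% and 72.9% in KO. Gpd2, the mitochondrial glycerol-3-phosphate dehydrogenase that carries cytosolic reducing power to the respiratory chain, was at 24.5, 23.5 and 26.6 FPKM in WT and 15.7, 13.9 and 16.0 in KO (log2 difference -0.68, adjusted p = 0.0013). Got1, a transaminase of the malate-aspartate shuttle, rose (log2 difference 0.43, adjusted p = 0.0016), as did Pdhx, a structural subunit of the pyruvate dehydrogenase complex (0.51, adjusted p = 0.0033). Pklr, the liver and islet pyruvate kinase, fell (-0.40, adjusted p = 0.007), as did the phosphoglucomutase gene listed as Pgm2 (-0.50, adjusted p = 0.0069). The glucose transporter of beta cells, Slc2a2, named after its values were seen, did not pass (adjusted p = 0.082).

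In the wider HIF pathway, several parts of the HIF machinery rose and others did not. Of 36 listed genes, of which Pgm1 is also on the glucose list and counted in both, 30 were tested, 7 rose and 3 fell, a called share of 33.3% against 39.9% of all genes. Arnt, the constant partner of the HIF alpha subunits, was at 11.4, 12.6 and 11.8 FPKM in WT and 16.7, 16.2 and 16.5 in KO (log2 difference 0.43, adjusted p = 0.0022). Vhl, which targets hydroxylated HIF for breakdown, was at 10.3, 10.3 and 10.1 FPKM in WT and 13.3, 11.9 and 13.9 in KO (log2 difference 0.32, adjusted p = 0.012). Egln2, the most abundant of the 3 Egln genes with 60.5% to 66.1% of their summed FPKM, rose from a WT mean of 26.8 to 31.5 FPKM (log2 difference 0.23, adjusted p = 0.012). All 3 were also higher in KO replicate 1 alone, by 0.45, 0.35 and 0.27. Ero1l, an oxidase of protein folding, rose by 0.24 (adjusted p = 0.011, 0.051 with the acinar covariate), the phosphoglucomutase gene listed as Pgm1 by 0.51 (adjusted p = 0.0091) and Anxa2, an annexin abundant in non-endocrine cells, by 1.55 (adjusted p = 0.0096), from 8.22, 7.16 and 7.20 FPKM in WT to 13.6, 37.6 and 26.2 in KO. Arnt2, a paralog of Arnt, fell (log2 difference -0.26, adjusted p = 0.028), with an adjusted p of 0.1 in KO replicate 1 alone, 0.089 with the acinar covariate and 0.055 with no filter. Epas1, which encodes HIF-2 alpha, did not pass (log2 difference -0.26, adjusted p = 0.17). Both Arnt2 and Epas1 were named after their values were seen.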

How the data were processed

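RNA of 6 mouse islet libraries, 3 WT and 3 KO, was sequenced. Titles gave each library's genotype and number. The submitters' processing notes name TopHat2 2.0.8b, Cuffdiff 2.1.1 and mm10 as the authors' tools and build. The annotation, the strand setting and any rescaling across libraries are not stated there. The deposited numbers were read as FPKM, Cuffdiff's usual output, because the headers name only the library and column sums differ (416935 to 1056344). Read depth is unknown.

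No rescaling was applied. Genes averaging 1 FPKM or more were tested on log2(FPKM + 1) with limma 3.58.1 in R 4.3.3 (trend, two-sided, group only), adjusted by Benjamini-Hochberg over 11669 genes; p-values measure the spread between these pooled libraries. Members, lists, alternatives and the rule for named genes (all members, and up to 6 called genes of smallest p per pathway list) were chosen with earlier results of these data known. The member Pkm was matched through RefSeq synonyms, positions are from GENCODE M21 (GRCm38, the assembly of mm10) and promoter entries, found for 34 of 35 members, from RefSeq. Data for KO against WT were also simulated (11669 genes, 200 changed per run, 5 runs). In them limma found 58.4% of the genes shifted by 0.5 log2 and 87% of those shifted by 1, and 4.4% of calls were false. The simulated noise was independent between genes and few genes changed, whereas 39.9% were called here, so these rates need not hold for these libraries.

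The alternatives were a pseudocount of 0.1, dropping the filter or raising it to 5 FPKM, median-of-ratios, equal-sum and quantile scaling, a robust prior, weights per library (array weights), a block for the replicate number, an acinar covariate, KO replicate 1 alone against WT (taken to vary like the WT libraries), and each library left out. The equal sums without insulin rows were added after seeing the data. In the fit of KO replicate 1 alone, the spread within groups comes only from the WT libraries. Its p-values do not measure the spread among KO libraries. That spread was wider than in WT for some members (SD 1.42 in KO and 0.127 in WT for Pfkp, 0.585 and 0.0972 for Slc16a3). For others it was not (2.59 and 2.97 for Eno1). The acinar mean of KO replicate 1 (8.87) was near WT and those of KO replicates 2 and 3 (11.7 and 12.7) were not. The acinar covariate therefore gave differences close to those of KO replicate 1 alone (0.52 and 0.50 for Pfkfb2, 0.85 and 0.85 for Slc16a3). These 2 alternatives are not separate checks. The median-of-ratios factors of the deposited values were 0.995 to 1. The values thus already stood on that scale, and this alternative could hardly change them.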

Additional observations from a re-analysis of the deposited data

How the results depend on the processing

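No called member changed sign in the 18 alternatives, and 3 of 14 (Pfkp, Pfkm and Ankrd37) passed in each. Equal sums outside the acinar genes reduced the calls over all genes from 4657 to 1923, members higher from 9 to 1 and lower from 5 to 2, glycolytic enzymes called from 6 to 2 and HIF targets from 5 to 1, with medians of -0.18 and -0.13. With insulin rows also left out these were 2295, 3, 2, 2 and 2, and the enzyme median was -0.10. The acinar covariate gave 2972 calls over all genes and 2 members lower, and KO replicate 1 alone 3041 calls, 2 members lower and an enzyme median of 0.06. With the replicate block, 3 members were lower and 9 higher; the numbers do not pair the libraries (correlations of deviations -0.206, -0.0885 and 0.0276). Leaving out single libraries gave 2481 to 5727 calls over all genes (2481 without WT replicate 1, 2507 without WT replicate 3), 7 to 11 members higher, 2 to 6 lower (2 without WT replicate 1 or 3, 3 without WT replicate 2 or KO replicate 2), 4 to 7 enzymes, 4 to 6 HIF targets, and medians of -0.04 to 0.02 and 0.04 to 0.12. Slc16a3 and Pfkfb4 give no value at a mean of at least 5 FPKM. Read depth is unknown, which limits Hk2, Egln3 and Adm most, all under 1.1 FPKM.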

Other observations

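Angptl4, a secreted inhibitor of lipoprotein lipase and a HIF target, was below the minimum for testing and is named after its values were seen. It was at 0.118, 0.174 and 0.0825 FPKM in WT and 1.11, 1.06 and 0.662 in KO, with no overlap between the groups (log2 difference 0.78, adjusted p = 0.0053 in limma with no filter). Car9, a carbonic anhydrase that is among the most HIF-dependent genes, was at 0.0199 to 0.0685 FPKM in WT and 0.0382, 0.307 and 0.502 in KO. Its KO replicate 1 value lay within the WT range, and the higher values were in the libraries with high acinar transcripts, whose part was not tested.

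Stc2, a secreted glycoprotein of the same pathway list, was at 0.217 to 0.328 FPKM in WT while the KO libraries, in replicate order, gave 0.176, 2.25 and 3.82. KO replicate 1 was below every WT library, and the difference did not pass (adjusted p = 0.11). Pdk2, another kinase of pyruvate dehydrogenase, was at 8.65 to 10.5 FPKM in WT and 5.89, 7.80 and 11.5 in KO (adjusted p = 0.39). Once the acinar mean entered the model, its KO level was lower (log2 difference -0.60, adjusted p = 0.013).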
